A study of Mus musculus with 32 samples.

Results

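The genes described here are 10 that neurons use to make and mature secreted peptides: the prohormone convertases Pcsk1 and Pcsk2, carboxypeptidase E (Cpe), the granins Scg2, Vgf, Chga and Chgb, the opioid precursors Penk and Pdyn, and the secreted pentraxin Nptx2. They were chosen by gene symbol, and all 10 were found once each among the 55573 genes of the count table. RNA-seq was performed on mouse hippocampal neurons grown on a porous membrane, which lets neurites pass through its pores so that the cell bodies above it (soma) and the processes below it (neurites) can be scraped off separately. There were 8 groups of 2 libraries each, for 16 libraries in all, given by 2 genotypes (WT and Mettl3 KO), 2 compartments and 2 treatments (untreated and KCl). In a separate assay called DART-seq, a cytidine deaminase fused to an m6A-binding YTH domain converts C to U beside m6A, the methylated adenosine that the Mettl3 methyltransferase places in mRNA.

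WT cultures came from C57BL/6 newborn pups and KO cultures from Mettl3 flox/flox newborn pups, the animals of a litter being pooled and both sexes mixed, and duplicates came from different litters. Both genotypes received AAV-hSyn-Cre-P2A-dTomato at day 7 in vitro (DIV7), so the WT neurons also expressed Cre. The hSyn promoter drives Cre in neurons, and other cells of the culture were not targeted. All cultures of both genotypes were silenced for 16 h from DIV14 with 1 µM TTX and 50 µM D-AP5. TTX blocks sodium channels and D-AP5 blocks NMDA receptors. Untreated here means silenced but not given KCl. The KCl group was then depolarized with 55 mM KCl for 2 h, and its untreated partner came from the same litter. Genotype and litter cannot be told apart, since each litter had 1 genotype. The soma fraction can also hold neurites that stayed above the membrane.

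A prohormone is translated into the secretory pathway, packed into dense-core vesicles and cut there into active peptides. The convertases cleave after pairs of basic residues, and carboxypeptidase E then trims the basic residues that remain at the new C-terminus. Granins help to build the vesicles and are themselves peptide precursors. In the hippocampus, enkephalin and dynorphin peptides act on opioid receptors, and neuronal pentraxins gather AMPA receptors at excitatory synapses. Several genes of this pathway are classical activity-regulated genes of neurons, induced through calcium and the transcription factor CREB.

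The libraries held between 33789183 and 71394235 counted reads. Duplicates were close in WT, where the SD of the log2 ratio between the 2 libraries of a group was 0.168 to 0.364 across genes, and much further apart in KO, where it was 0.504 to 1.33. The immediate early genes Fos, Npas4 and Arc changed by 7.80, 7.94 and 7.16 on the log2 scale in KCl-treated WT soma. Mettl3 itself was counted at 16.7 to 17.3 CPM (TMM-scaled read counts relative to library size) in untreated WT soma and at 8.69 to 11.6 CPM in untreated KO soma, a partial difference that did not pass the test in any of the 4 KO comparisons (log2 -0.73 to -1.19). The counts cover the whole gene and not the deleted part alone, so they check the deletion only loosely. The 2 libraries of KCl-treated KO replicate 1 stood apart: summed astrocyte markers reached 9693 CPM in soma and 18712 CPM in neurites against at most 7263 CPM in any other library, oligodendrocyte-lineage markers 3511 and 6963 CPM against at most 203 CPM, and microglial markers 392 and 284 CPM against at most 55.99 CPM, while neuronal markers were at 2098 and 1168 CPM against at least 3604 CPM elsewhere. No marker of any list was at 0 in any library. In such bulk samples, fewer cells of a type and less RNA per cell cannot be told apart.

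Levels were first set side by side per length of the gene's exons (CPM per kb, n = 2, SD) in untreated WT soma. Cpe was by far the most abundant at 651 ± 69.0, followed by Chga (126 ± 4.10), Chgb (102 ± 4.03) and Scg2 (59.8 ± 5.17). Vgf stood at 23.6 ± 2.51, Pcsk2 at 12.2 ± 0.00925, Pdyn at 5.75 ± 0.864, Nptx2 at 3.84 ± 0.0640, Penk at 2.45 ± 0.179 and Pcsk1, the lowest, at 1.22 ± 0.0159. No neighbours in this order overlapped between their 2 libraries, and before stimulation Pcsk2 mRNA was the more abundant of the 2 convertases. After KCl, Pcsk1 reached 24.2 ± 5.42 and stood above Pcsk2, while the libraries of Vgf (104 ± 74.6) and Scg2 (136 ± 6.61) came to overlap those of Chga or Chgb.

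**Figure D1:**
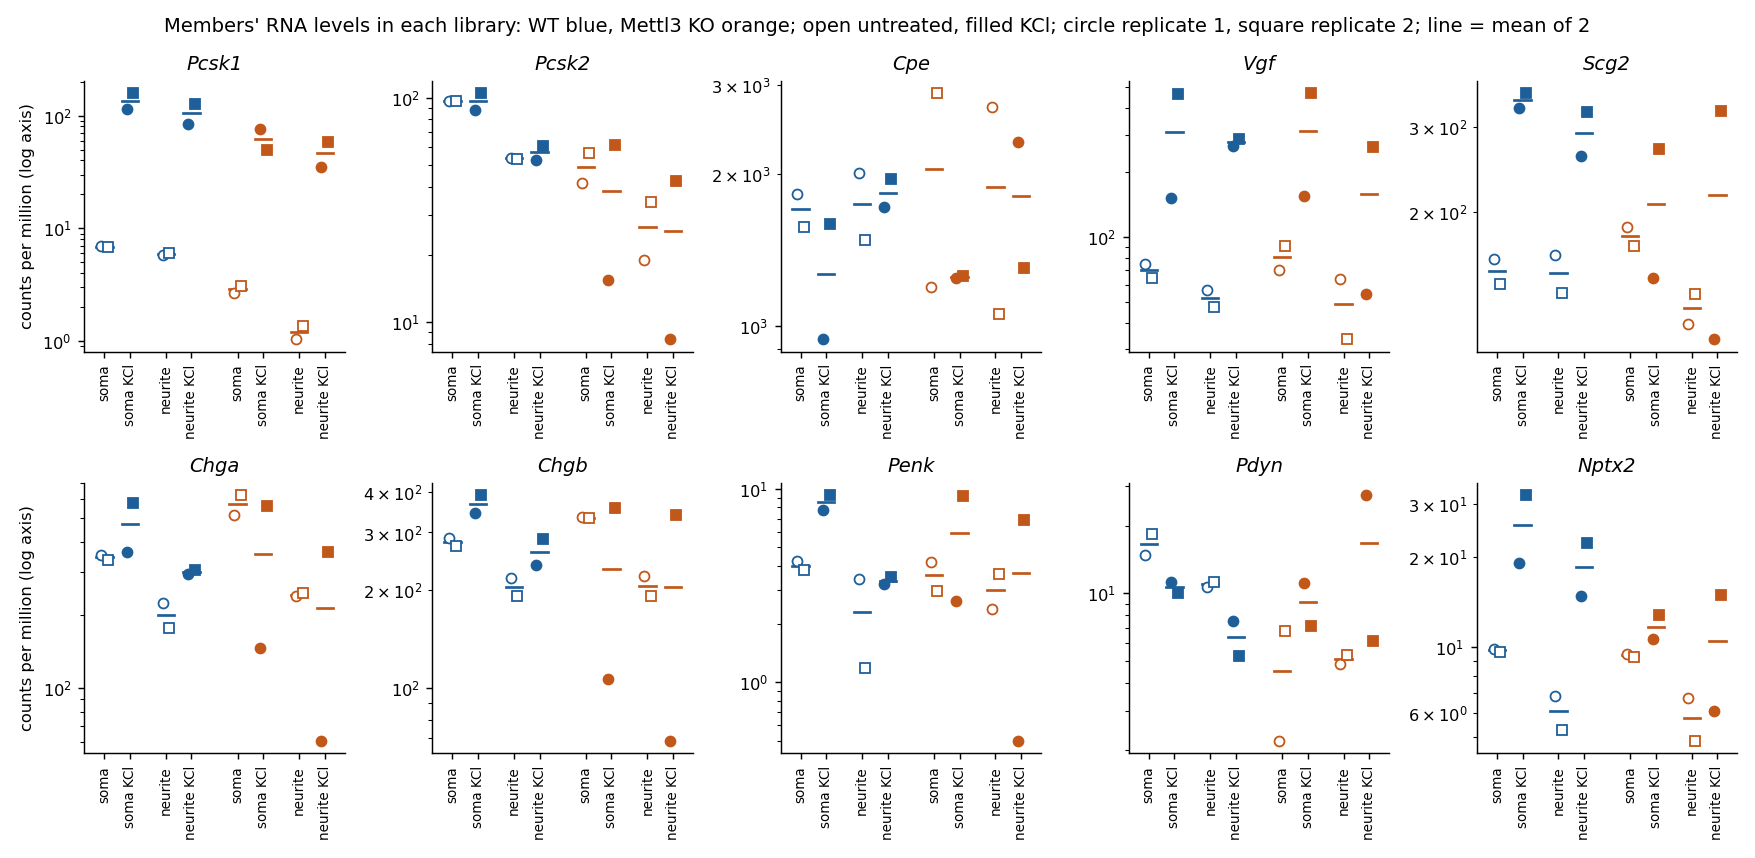
TMM-scaled CPM (log axis) of the 10 genes in each of the 16 libraries, 1 panel per gene, with points for single libraries grouped by genotype, compartment and treatment. Pcsk1 lies between 5.78 and 6.93 in the untreated WT libraries and between 83.7 and 157 in the KCl-treated ones, whereas Pcsk2 and Cpe show no such step.

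The first comparison asked which of these mRNAs respond to depolarization in WT neurons. In soma, 4 of the 10 genes rose at least 2-fold with an adjusted p of at most 0.05, and none fell. Of the 24060 genes tested, 3.74% rose and 6.7% were called in either direction. These were Pcsk1, Vgf, Nptx2 and Scg2. In neurites the same 4 genes rose and none fell, where 3.33% of 22059 genes rose and 5.03% were called in either direction. The median log2 change of the 10 genes was 0.77 in soma and 0.64 in neurites, beside 0.0087 and 0.013 over all genes tested. In soma 7 of the 10 genes were higher in both KCl libraries than in both untreated ones, and 1 was lower. Over all genes tested these shares were 27.3% and 29.7%. In neurites 6 were higher and 1 lower without overlap, beside 21.3% and 33.6% of all genes.

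Pcsk1 (chr13:75089826-75134861, plus strand, GRCm38), which encodes the convertase PC1/3, gave the largest response of the 10. In WT soma it was counted at 6.93 and 6.80 CPM in the untreated libraries and at 114 and 157 CPM after KCl. In WT neurites it was at 5.78 and 6.04 CPM untreated and at 83.7 and 127 CPM after KCl. Every KCl library was thus far above every untreated one, with no overlap in either compartment. The log2 change was 4.31 ± 0.22 (SE, 19.8-fold, adjusted p = 7.33e-07) in soma and 4.24 ± 0.23 (18.9-fold, adjusted p = 2.40e-06) in neurites. Its pattern over the 16 libraries was most like those of Ddx3y (Pearson r = 0.979), Btaf1 (0.974) and 9830144P21Rik (0.973) among 15170 genes, a description over points that share their libraries and the KCl step.

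Vgf (chr5:137026392-137033351, plus strand) encodes a granin-like precursor of several secreted peptides and is known as a nerve growth factor-inducible gene. Its counts in WT soma were 75.3 and 64.7 CPM untreated and 153 and 466 CPM after KCl, and in WT neurites 57.0 and 47.4 CPM untreated and 267 and 287 CPM after KCl. The groups did not overlap, but the KCl soma libraries were far apart from each other. The log2 change was 2.15 ± 0.38 (4.45-fold, adjusted p = 0.00400) in soma and 2.50 ± 0.40 (5.64-fold, adjusted p = 0.00346) in neurites. Without the second KCl soma library the soma change was 1.11, and without the first it was 2.77. Gpr3 (r = 0.951), Sik1 (0.945) and Spry4 (0.938) had the most similar patterns over the 16 libraries.

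Nptx2 (chr5:144545902-144557478, plus strand), the activity-regulated pentraxin also called Narp, was low before stimulation. WT soma had 9.86 and 9.63 CPM untreated and 19.1 and 32.2 CPM after KCl, and WT neurites had 6.88 and 5.30 CPM untreated and 14.8 and 22.3 CPM after KCl. All 4 KCl libraries lay above all 4 untreated ones. The log2 change was 1.40 ± 0.26 (2.64-fold, adjusted p = 0.00459) in soma and 1.69 ± 0.27 (3.22-fold, adjusted p = 0.00355) in neurites. The soma call was lost without the second KCl soma library, where the log2 change was 0.96.

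Scg2 (chr1:79434669-79440120, minus strand) encodes secretogranin II, the precursor of secretoneurin. It was counted at 159.6 and 141 CPM in untreated and 329.9 and 353 CPM in KCl-treated WT soma, and at 163 and 135 CPM in untreated and 262 and 323 CPM in KCl-treated WT neurites. The KCl libraries were higher without overlap in both compartments. The log2 change was 1.19 ± 0.13 (2.28-fold, adjusted p = 0.000218) in soma and 1.06 ± 0.13 (2.08-fold, adjusted p = 0.000796) in neurites. The neurite value was below the 2-fold limit, at 0.96 and 0.92, without the second untreated or the second KCl neurite library.

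The other granins did not pass. Chga (chr12:102554969-102565028, plus strand), chromogranin A, changed by 0.45 ± 0.19 on the log2 scale in soma (adjusted p = 0.158) and 0.68 in neurites (adjusted p = 0.0607). Chgb (chr2:132781278-132795079, plus strand), chromogranin B, had 288 and 272 CPM in untreated and 343 and 391 CPM in KCl-treated WT soma. Its libraries did not overlap, yet the log2 change was only 0.39 ± 0.12 (adjusted p = 0.0593), and 0.44 in neurites (adjusted p = 0.0544).

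The remaining processing enzymes showed no called response. Pcsk2 (chr2:143546156-143816285, plus strand), the convertase PC2, was at 96.3 and 96.4 CPM in untreated and 88.2 and 104 CPM in KCl-treated WT soma, a log2 change of 0.00, and its log2 change in neurites was 0.17 (adjusted p = 0.466). Cpe (chr8:64592542-64693054, minus strand) was at 1827 and 1572 CPM untreated and 940.5 and 1593 CPM after KCl in soma, with overlap between the groups (log2 -0.42 ± 0.22, adjusted p = 0.259), and changed by 0.16 in neurites (adjusted p = 0.713). Of the Pcsk2 exons, 359 bases are shared with the antisense genes Pcsk2os1 and Pcsk2os2, whose reads cannot be told apart in libraries without strand.

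Neither opioid precursor passed the test. By estimate, Penk was above 0 and Pdyn below 0 in soma and in neurites alike. Penk (chr4:4133531-4138819, minus strand), which encodes proenkephalin, was at 4.21 and 3.80 CPM in untreated and 7.76 and 9.27 CPM in KCl-treated WT soma, with no overlap (log2 1.09 ± 0.33, adjusted p = 0.0535). In neurites its untreated libraries differed widely, at 3.43 and 1.19 CPM, and its log2 change was 0.59 (adjusted p = 0.365). Leaving out 1 library moved that change between 0.079 and 1.54, and it was called without the first untreated library (adjusted p = 0.0129). Pdyn (chr2:129686565-129699844, minus strand), which encodes prodynorphin, was at 14.8 and 18.4 CPM untreated and 11.3 and 9.98 CPM after KCl in soma, lower in both KCl libraries (log2 -0.64 ± 0.20, adjusted p = 0.0552). In neurites Pdyn had 10.7 and 11.2 CPM untreated and 7.54 and 5.25 CPM after KCl (log2 -0.69, adjusted p = 0.0628). With DESeq2 in place of edgeR the Penk soma change passed, giving 5 called genes. In edgeR it also passed with RLE size factors (adjusted p = 0.0480), with no filter on low counts (0.000187) and with the libraries compared alone (0.00613). It did not pass with a replicate block or with all 16 libraries. Penk shares 233 exon bases with A830012C17Rik on the other strand.

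**Figure D2:**
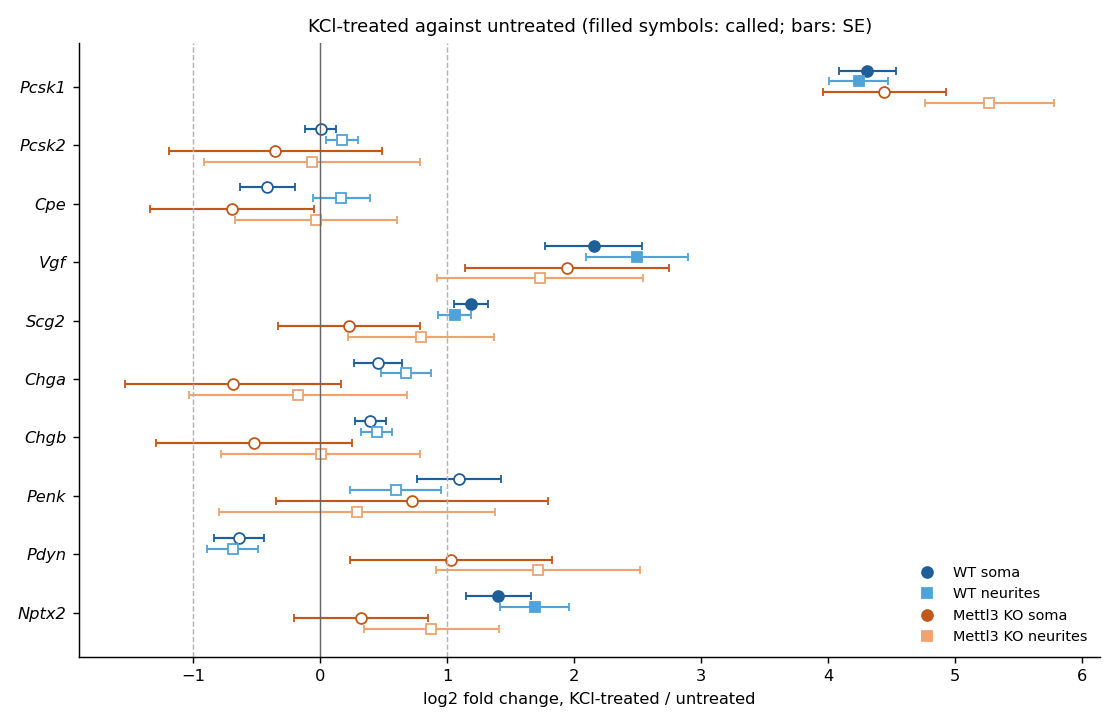
Log2 change after KCl with its standard error for the 10 genes in soma and neurites of WT and of Mettl3 KO, with lines at the 2-fold limits. In WT, Pcsk1 lies at 4.31 and 4.24, and Vgf, Nptx2 and Scg2 lie beyond the upper limit in both compartments. Pdyn is the only gene below 0 in both WT compartments.

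These calls rest on the spread of the 8 WT libraries. With 1 spread estimated over all 16 libraries, which took in the wider KO duplicates, Pcsk1 alone was called, in soma and in neurites.

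Promoters from RefSeq (GRCm38.p6, 250 bases before to 50 after each start) were searched for the cAMP response element TGACGTCA, the palindromic site that CREB binds, because several of these genes moved together. The table held promoters for 6 of the 10 genes. The element was present in Pcsk1, Scg2 and Chgb, starting 78, 68 and 72 bases before the start, and in 1.79% of the 32817 promoters. The windows are printed on the strand of the gene with the element in capitals, so that its similar distance and its differing flanks can be seen.

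Pcsk1, chr13:75089771-75089794 (plus strand): ggtagatcTGACGTCAagagatgg
Scg2, chr1:79440079-79440102 (minus strand): tgagccggTGACGTCAgcgtggaa
Chgb, chr2:132781562-132781585 (plus strand): ctgctccgTGACGTCAgggctgag

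Of these genes, Pcsk1 and Scg2 were called after KCl and Chgb was not. The shorter core TGACG, searched on both strands, is contained in the full element. With those matches counted, it was in the promoters of Pcsk1, Scg2, Chgb, Pcsk2 and Chga, and in 20.8% of all promoters. Outside the full element it occurred in those of Pcsk1, Pcsk2 and Chga. The AP-1 letters TGACTCA were in 5.2% of promoters and in none of the matched ones, and neither Pdyn promoter held any of the 3 motifs. A match is a description of letters in this window and not a measured binding site. Promoters of Vgf, Penk, Cpe and Nptx2 were not analysed here.

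Genes of the wider pathway, from fixed lists, were read beside these. Of 25 other proteins of prohormone processing and dense-core vesicles, 1 rose in WT soma and in neurites and none fell: Syt4, a vesicle synaptotagmin, at 1.51 and 1.42 on the log2 scale. Of 19 other neuropeptide precursors tested in soma, 2 rose, Nppc (1.26) and Sst (1.01), and in neurites none passed in either direction with edgeR. Of 8 CREB family factors and coactivators, Atf4 (2.48 in soma, 2.64 in neurites) and Crem (1.81 and 1.31) rose in both compartments. No opioid receptor and neither of the 2 genes of the pentraxin list, Nptx1 and the receptor Nptxr, passed in soma or neurites. Few cell type markers were called after KCl in WT soma, where 1 of 11 astrocyte markers (Sox9), 1 of 11 fibroblast and vessel markers (Vtn) and none of the microglial or oligodendrocyte-lineage markers rose, and none of these lists had a marker that fell. Neuron subtype markers differed more widely. Of 10 markers of GABAergic neurons, 9 had estimates above 0 in soma (median log2 0.65) and 1 was called, and their summed level was 722 and 755 CPM untreated and 1175 and 1104 CPM after KCl. Sst, Vip and Npy stand both in this list and among the neuropeptide precursors. All 6 markers of dentate granule neurons had estimates below 0 (median -0.49) with none called, their sum being 596 and 641 CPM untreated and 419 and 415 CPM after KCl. In neurites the medians of the 2 lists were 0.31 and -0.31. The part of these marker levels in the KCl response of the peptide genes was not tested.

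The second comparison asked where the mRNAs lie. In untreated WT cultures, 3 of the 10 genes were at least 1.5-fold lower in neurites than in soma with an adjusted p of at most 0.05 and none was higher, where 4.54% of 23200 genes were lower and 13.6% were called in either direction. They were Pcsk2, Chga and Pdyn. All 10 estimates were below 0, with a median log2 ratio of -0.59 beside -0.098 over all genes. In KCl-treated WT cultures, 3 were lower and none higher, namely Pcsk2, Penk and Pdyn, where 2.73% of 23028 genes were lower and 9.6% were called in either direction. There the median was -0.47 beside -0.033, and Cpe was the 1 gene above 0 (log2 0.54, adjusted p = 0.132). Untreated, both neurite libraries lay below both soma libraries for 8 of the 10 genes and above for 0. Over all genes these shares were 33.7% and 31.3%. After KCl the numbers were 6 below and 1 above, beside 29.5% and 26.4% of all genes.

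Pcsk2 was the most uniform of these. Untreated WT neurites had 53.9 and 53.5 CPM against 96.3 and 96.4 CPM in soma, and KCl-treated neurites had 52.8 and 61.1 CPM against 88.2 and 104 CPM. Neurites were lower than soma in every library of both treatments. The log2 ratio was -0.91 ± 0.12 (adjusted p = 0.00119) untreated and -0.75 ± 0.12 (adjusted p = 0.00418) after KCl. The KCl call was lost without the first neurite library.

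Among the granins, Chga was at 355 and 339 CPM in untreated soma and 224 and 176 CPM in neurites, without overlap. Its log2 ratio was -0.86 ± 0.19 (adjusted p = 0.0129) untreated and -0.64 after KCl (adjusted p = 0.0520). The untreated call was lost without either soma library or the second neurite library. Chgb had the same direction at a smaller size, -0.52 ± 0.12 untreated (adjusted p = 0.0163) and -0.48 after KCl (adjusted p = 0.0297), which is under the 1.5-fold limit. The ratio of Vgf after KCl was -0.16 and turned sign when 1 soma library was left out.

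Pdyn was at 14.8 and 18.4 CPM in untreated soma and 10.7 and 11.2 CPM in neurites, and after KCl at 11.3 and 9.98 CPM in soma and 7.54 and 5.25 CPM in neurites. Neurites were lower without overlap in both treatments, with log2 ratios of -0.67 ± 0.20 (adjusted p = 0.0386) and -0.72 ± 0.20 (adjusted p = 0.0407). These calls were close to the limit: with a replicate block the adjusted p was 0.0569 and 0.0603. That block is 1 term for the replicate number over all WT libraries and does not pair the compartments of each insert. The untreated call was lost without any one of its 4 libraries, and the KCl call without the first soma or the second neurite library. Penk after KCl was at 7.76 and 9.27 CPM in soma and 3.20 and 3.49 CPM in neurites, a clear gap (log2 -1.34 ± 0.34, adjusted p = 0.0276), and untreated its ratio was -0.84 (adjusted p = 0.120). Leaving out 1 library moved the untreated ratio between -1.78 and -0.32, and it was called without the first neurite library (adjusted p = 0.00355). The Penk call after KCl was lost without the second soma library or either neurite library. For Nptx2 the untreated ratio was -0.74 (adjusted p = 0.0774). This ratio was called with DESeq2 (adjusted p = 0.0265), and in edgeR with no filter on low counts (0.00217) and with the libraries compared alone (0.0293). It was not called with a replicate block or with all 16 libraries.

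**Figure D3:**
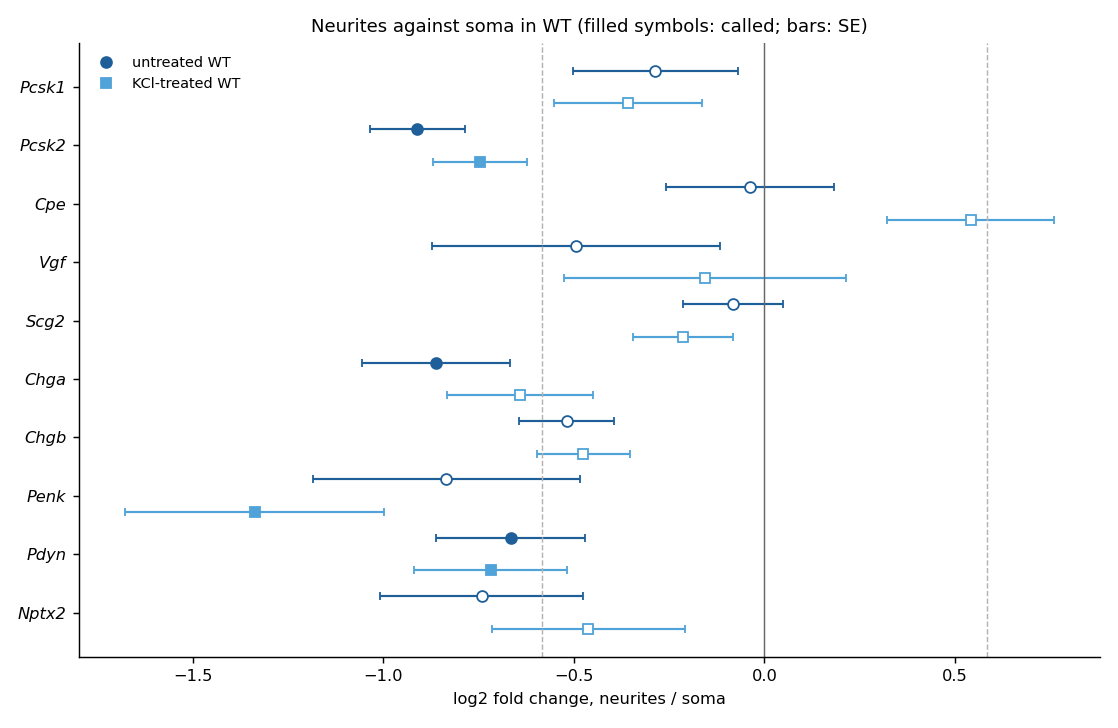
Log2 ratio of neurites to soma with its standard error for the 10 genes in untreated and KCl-treated WT cultures, with dotted lines at the 1.5-fold limits. All 10 untreated ratios lie below 0, with Pcsk2 lowest at -0.91, and after KCl Penk is lowest at -1.34 while Cpe lies above 0 at 0.54.

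Cell type markers also differed between the fractions. In the untreated WT comparison 6 of 11 astrocyte markers, 6 of 11 fibroblast and vessel markers, 2 of 7 microglial and 2 of 7 oligodendrocyte-lineage markers were higher in neurites and none was lower, while 2 nuclear RNAs (Meg3, log2 -1.15, and Snhg11, -1.31) were lower. Among neuronal markers the dendritic Map2 was higher by 1.73 and Nefl by 0.79, and Nefm was lower at -0.70. Of 10 markers of GABAergic neurons, 2 were lower and none higher untreated (8 estimates below 0, median -0.46), and 4 were lower and none higher after KCl (9 below 0, median -0.56). The part of these differences in the ratios of the peptide genes was not tested. With 1 spread estimated over all 16 libraries none of the 10 genes was called in either treatment.

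Among the wider lists, neuropeptide precursors gave 5 lower and none higher of 19 tested in untreated WT, among them Tac2 (log2 -1.88), Vip (-1.55), Adcyap1 (-1.32), Tac1 (-0.96) and Sst (-0.89). Adcyap1 was the fifth by p and was named after its values were seen. After KCl, 7 were lower and none higher, among them Tac2 (-1.70), Vip (-2.11), Tac1 (-1.22) and Sst (-1.15). Of the other processing and vesicle proteins, Pcsk1n, the inhibitor of the convertase PC1/3, was higher in neurites at 0.66 untreated and 0.77 after KCl, and Sytl4, a granule-docking protein, at 1.63 and 1.75. Qpct, which turns peptide N-termini to pyroglutamate, was lower at -0.69 after KCl and was also named after its values were seen. The nociceptin receptor Oprl1 was lower in neurites at -0.64 untreated and -0.61 after KCl, the only opioid receptor called among 3 tested. The CREB list moved in both directions, with Crtc1 higher by 1.56 and Atf4 lower at -0.62 in untreated cultures.

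The change of the neurite-to-soma ratio with KCl was read next, with calls at 1.5-fold and p up to 0.05 before adjustment. In WT, 1 of the 10 genes passed, Cpe, against 3.36% of 23200 genes. Cpe was at 1827 and 1572 CPM in untreated soma and 2003 and 1477 CPM in untreated neurites, and after KCl at 940.5 and 1593 CPM in soma and 1718 and 1949 CPM in neurites. Only the first KCl soma library stood clearly below the rest. The log2 change of the ratio was 0.64 ± 0.24 (unadjusted p = 0.0242, adjusted p = 0.999). The call was lost in 6 of the 8 fits that left out 1 library, with log2 values from 0.31 to 0.96.

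Loss of Mettl3 was compared within each of the 4 combinations of compartment and treatment. In untreated soma none of the 10 genes was called (0.185% of 23750 genes), in untreated neurites 1 was lower (0.124% of 21814 genes lower, 0.188% in either direction), in KCl-treated soma none (0.212% of 24038) and in KCl-treated neurites none (0.44% of 22488). At an unadjusted p under 0.05 the counts were 2, 1, 2 and 2 of the 10, beside 2131, 1629, 3483 and 5430 of all genes tested. With DESeq2 the called genes of the 10 were 0, 1, 1 and 1.

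The called gene was Pcsk1. Untreated WT neurites had 5.78 and 6.04 CPM and untreated KO neurites 1.04 and 1.36 CPM, from 45 and 49 reads. The genotypes did not overlap, with a log2 difference of -2.31 ± 0.35 (4.97-fold lower, adjusted p = 0.0268). The adjusted p was 0.0625 with a replicate block, and the call was lost without any one of the 4 libraries. In the same libraries 7 of 10 neuronal markers were lower in KO by estimate (median log2 -0.50), with sums of 4089 and 4406 CPM against 5768 and 6377 CPM in WT, and all 11 astrocyte markers were higher by estimate (median 0.83), with sums of 7263 and 3006 CPM against 3364 and 2094 CPM. No marker of these 2 lists was called, and their part in the Pcsk1 difference was not tested. In untreated soma, Pcsk1 was at 6.93 and 6.80 CPM in WT and 2.69 and 3.06 CPM in KO (log2 -1.24 ± 0.33, adjusted p = 0.242). After KCl it was at 114 and 157 CPM in WT soma against 75.3 and 49.5 CPM in KO soma, and at 83.7 and 127 CPM in WT neurites against 34.8 and 57.8 CPM in KO neurites. The KO libraries were lower than the WT ones without overlap in all 4 comparisons. Lower KO libraries without overlap were seen for 25.87% and 24.55% of all genes in untreated soma and neurites. After KCl these shares were 24.004% and 25.97%. Pcsk2 was also lower without overlap in all 4. The KCl differences of Pcsk1 were -1.12 ± 0.32 (adjusted p = 0.205) and -1.17 ± 0.33 (adjusted p = 0.113). DESeq2 called both of these. Without the KCl-treated KO replicate 1 libraries, the untreated soma difference of Pcsk1 was -1.27 and was called.

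Pcsk2 was at 88.2 and 104 CPM in KCl-treated WT soma and at 15.3 and 61.4 CPM in KO soma, and at 52.8 and 61.1 CPM against 8.38 and 42.3 CPM in neurites. The KO duplicates differed from each other by more than the genotypes' nearer libraries did, the low value being that of replicate 1 in which glial markers were high (log2 -1.34, adjusted p = 0.380, and -1.15, adjusted p = 0.313). Pdyn in untreated soma was at 14.8 and 18.4 CPM in WT and 2.20 and 6.81 CPM in KO, lower in both KO libraries (log2 -1.89 ± 0.62, unadjusted p = 0.0106, adjusted p = 0.370). Chga, Chgb, Scg2 and Penk were likewise lowest in a KCl-treated KO library of replicate 1, in soma or in neurites: Chga was at 147 CPM in soma and 60.7 CPM in neurites there, against 564 and 365 CPM in replicate 2. Without KO replicate 2, the KCl-treated neurite comparison rested on that 1 KO library and called 9 of the 10 genes, among 7239 genes in all.

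**Figure D4:**
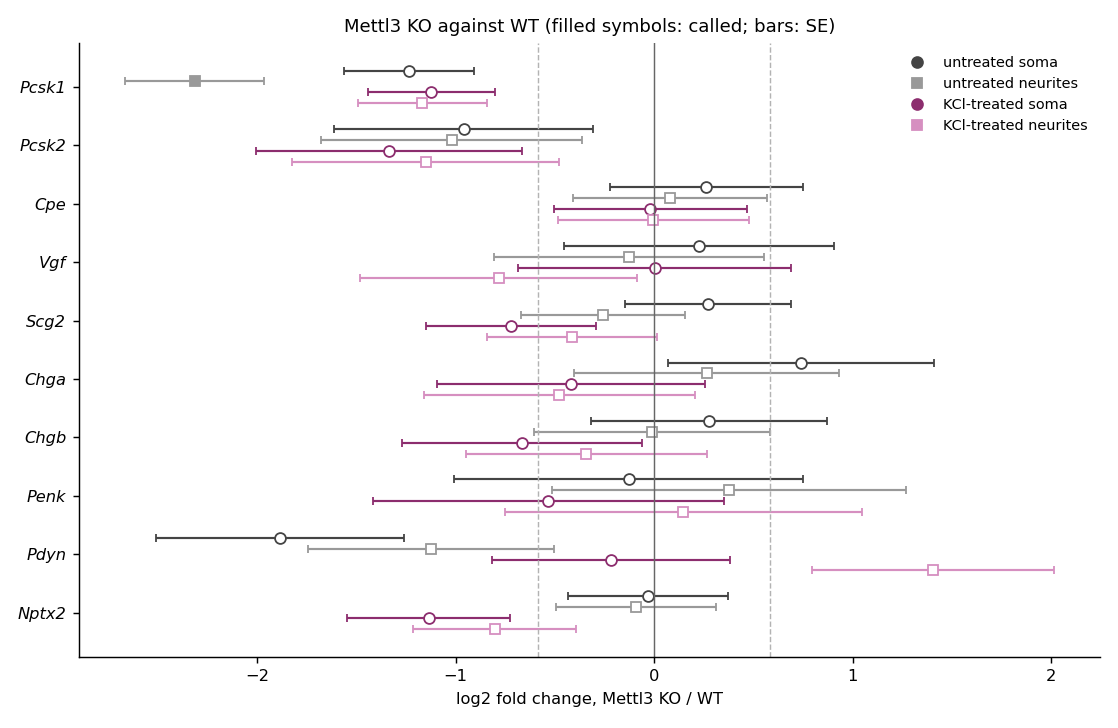
Log2 difference of Mettl3 KO from WT with its standard error for the 10 genes in the 4 combinations of compartment and treatment, with dotted lines at the 1.5-fold limits. Pcsk1 lies below 0 in all 4 and is lowest in untreated neurites at -2.31, the 1 called difference.

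The KCl response was also measured within KO. No gene of the whole table was called, in soma (0% of 23679, with 1562 genes at an unadjusted p under 0.05 by edgeR and 270 called by DESeq2) or in neurites (0% of 22199, with 1390 and 253). Among the 10 genes, 2 in soma and 1 in neurites had an unadjusted p under 0.05. Pcsk1 was at 2.69 and 3.06 CPM in untreated and 75.3 and 49.5 CPM in KCl-treated KO soma, and at 1.04 and 1.36 CPM against 34.8 and 57.8 CPM in KO neurites, so that it was again higher without overlap in both KCl libraries. Its log2 change was 4.44 ± 0.48 (unadjusted p = 1.62e-05, adjusted p = 0.158) in soma and 5.27 ± 0.51 (unadjusted p = 7.88e-06, adjusted p = 0.175) in neurites, and it was the 1 member called by DESeq2 in both. Vgf was at 70.6 and 91.2 CPM untreated and 155 and 467 CPM after KCl in KO soma, the groups not overlapping (log2 1.94 ± 0.81, unadjusted p = 0.0424). Higher KCl libraries without overlap were seen for 19.0% of all genes in KO soma and 16.1% in KO neurites.

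The difference between the genotypes' KCl responses in soma was tested directly over all 16 libraries. None of the 10 genes was called (0% of 24058), none had an unadjusted p under 0.05, against 493 of all genes, and DESeq2 called none of the 10 and 2 genes in all. These tests did not detect a difference of response in the 10 genes, and with KO duplicates this far apart they do not show that the responses were alike.

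Neurite enrichment within KO gave no call in untreated (0% of 22557) or KCl-treated cultures (0% of 23152) by edgeR, while 1239 and 132 genes, and 1 and 0 of the 10, had an unadjusted p under 0.05. DESeq2 called 17 genes and none, no member among them. The change of the untreated neurite-to-soma ratio with loss of Mettl3 passed the same limits for 1 of the 10, against 4.19% of 22942 genes. This was Pcsk1, with a log2 change of -1.09 ± 0.45 (unadjusted p = 0.0378, adjusted p = 0.934), and its call was lost in 7 of the 8 fits that left out 1 library.

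DART-seq gave scores for 6 of the 10 mRNAs, Nptx2, Chgb, Pcsk2, Chga, Scg2 and Vgf. They held 18 of the 18231 called sites, all on a RAC triplet (R is A or G), as the calling required. The 5 most edited sites and the 2 of Vgf, which are among the least edited, are printed with the triplet in capitals, 5′ to 3′ on the strand of the mRNA in DNA letters, each in a window of 21 bases of GRCm38.

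Nptx2, 3′ UTR, chr5:144557072: gcttctacAACaatccccaca
Nptx2, 3′ UTR, chr5:144556587: ggggtagtGACagaatccctg
Chgb, 3′ UTR, chr2:132795054: gaaacacaAACaataaaaaga
Chgb, coding, chr2:132786009: cagtggatAACagggatcaca
Pcsk2, coding, chr2:143687635: atgagattGACatcaacatga
Vgf, coding, chr5:137031308: cagcagggAACacccgaagaa
Vgf, coding, chr5:137031338: gctctgctGACcgagtccgtg

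The C-to-U fraction in WT was 11.3% and 9.71% at the Nptx2 sites, 11.03% and 10.6% at the Chgb sites and 10.5% at the Pcsk2 site, all above the median of 3.54% over all sites. The 2 Vgf sites were at 0.282% and 0.324%, the Scg2 site at 1.86% and the 4 Chga sites at 0.831% to 2.24%, all below that median. The Vgf averages and the lowest Chga average are below the lowest editing rate that the methods accept for a call. Per the methods, that limit was applied to each sample and a site had to recur in only some replicates, while these values average all WT samples. Across all sites 53.73% of triplets were GAC. No coverage entered these values, so they have no counting interval.

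Each RNA has a deposited DART score, described in the methods as adding up mean C-to-U fractions over its called sites. The site fractions did not always add up to it: they gave 0.293 against a score of 0.156 for Chgb, 0.0605 against 0.0472 for Chga and 0.151 against 0.137 for Pcsk2. Replicates were averaged before deposition, so a score has no error here. The WT score was 0.262 for Nptx2, 0.156 for Chgb and 0.137 for Pcsk2, above the median of 0.103 over 5643 RNAs, and 0.0472 for Chga, 0.0186 for Scg2 and 0.00611 for Vgf, below it. Of the mRNAs that rose with KCl, Nptx2 thus had the highest deposited score of the 6 and Vgf the lowest, and Pcsk1 had none. A call needed a minimum of reads, so the lack of a score does not show a lack of m6A. By summed site fractions Chgb came first at 0.293 and Nptx2 next at 0.259. The KO scores were 0.0763, 0.0726, 0.0598, 0.0205, 0 and 0.00155 in the same order. A site had to be edited more in WT than in KO to be called, so the lower KO scores are part of the selection. As a share of the WT score, KO kept 29.1% for Nptx2, 46.6% for Chgb, 43.8% for Pcsk2, 43.5% for Chga, 25.3% for Vgf and 0% for Scg2, beside a median of 30.8% over 5634 RNAs.

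Soma and neurite scores, which average untreated and KCl samples, were 0.275 and 0.243 for Nptx2, 0.136 and 0.190 for Chgb, 0.149 and 0.102 for Pcsk2, 0.0310 and 0.0819 for Chga, 0.0241 and 0.0116 for Scg2 and 0.00846 and 0.00175 for Vgf. Chga and Chgb were higher in neurites, by ratios of 2.64 and 1.40, and the others were lower, with ratios of 0.887, 0.688, 0.481 and 0.206, beside a median ratio of 1.30 over 5594 RNAs. Chga, the mRNA with the highest ratio of editing, was among those lower in neurites by counts. These ratios have no replicate check.

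**Figure D5:**
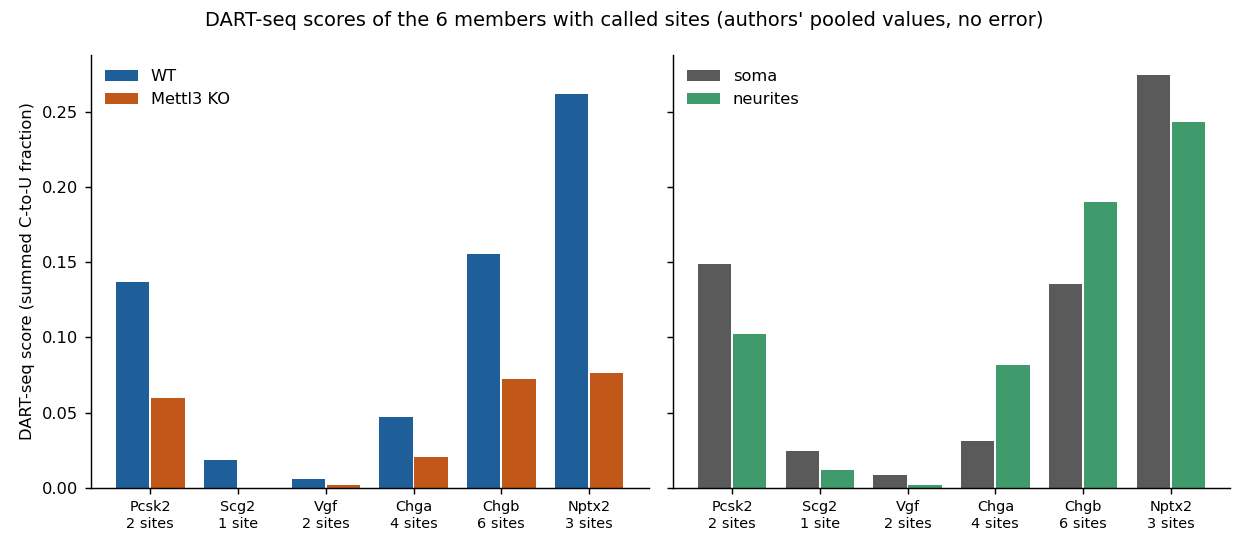
Deposited DART scores (mean C-to-U fractions added over called sites, per the methods) of the 6 scored mRNAs in WT, KO, soma and neurites, 1 bar per deposited average. Nptx2 has the highest deposited WT score at 0.262 and Vgf the lowest at 0.00611, and Chga and Chgb are the mRNAs with a higher score in neurites than in soma.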

How the data were processed

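RNA was extracted from scraped soma and neurite fractions, and 50 ng per sample was made into NEBNext Single Cell/Low Input libraries, which do not keep strand. Per the labels and methods, the authors aligned reads to mm10 with STAR 2.7.7a and made the deposited raw counts with featureCounts 2.0.1, counting multimapped reads too. Their DESeq2 tables were used here for gene symbols only, and neither their signal column (deposited mean normalized counts) nor their fold changes and p-values were used. DART-seq files hold a deposited score per RNA and a deposited C-to-U fraction per site, pooled over replicates. Per the methods, sites needed a minimum of reads and of mutations, an editing rate within set bounds, and a place on a RAC motif. They also had to recur between replicates and exceed each KO sample in editing.

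Counts were tested with edgeR 4.0.16 (R 4.3.3; TMM factors, quasi-likelihood test, Benjamini-Hochberg adjustment over all genes tested), with 2 libraries per group. Comparisons within a genotype used its 8 libraries and those between genotypes all 16. Genes with a mean count under 10 in the groups compared were not tested. Calls needed an adjusted p of at most 0.05 and a 2-fold change for KCl, or 1.5-fold otherwise. Changes of neurite enrichment used the unadjusted p and 1 term per insert. The methods pair the soma and neurites of an insert. Correlations of replicate differences over 15170 genes were between -0.182 and 0.070 among WT groups and between 0.072 and 0.901 among KO groups. Pairing was not part of the other fits. The 0.901 was between soma and neurites of KCl-treated KO, where the unpaired fit counts this shared difference as spread. DESeq2 1.42.0, RLE size factors, other count filters, other sets of libraries, replicate blocks and leaving out each library were alternatives. Scripts were tested on simulated data. The genes and the 13 lists were chosen with earlier results of these data known. All 10 genes are named; from each list, those called in KCl-treated WT soma or in untreated WT neurites against soma were named, up to 4 per direction by p. Whether duplicates vary as animals do is not known, since each is 1 pooled litter.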

Additional observations from a re-analysis of the deposited data

Results flagged for a closer look

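For 2 genes, a compartment ratio differed between treatments or genotypes by an interaction term at an unadjusted p of at most 0.05, and neither passed adjustment over all genes. The neurite-to-soma ratio of Cpe was higher after KCl in WT by 0.64 on the log2 scale (adjusted p = 0.999). Its first KCl soma library, at 940.5 CPM, was the lowest of the 8 WT libraries, which otherwise held 1477 to 2003 CPM. The neurite-to-soma ratio of Pcsk1 in untreated cultures was lower in Mettl3 KO by -1.09 (adjusted p = 0.934), from KO neurite libraries of 45 and 49 reads. Groups of 2 libraries were too small to examine for single outlying samples.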

How the results depend on the processing

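Of 125 counts of called genes recomputed under other settings than leaving out a library, 96 stayed within 1.5 times, and of 385 single-gene values 327 kept their direction and their side of the threshold, 23 lost and 32 gained a call and 3 changed sign. With all 16 libraries in 1 fit, the called genes of the 10 were 1 in WT soma and 1 in WT neurites after KCl, 0 for neurites against soma in both treatments, 0 for the KCl change of enrichment, and 1 each for KO soma and KO neurites after KCl. With no filter on low counts they were 5 for untreated WT neurites against soma, 1, 1 and 3 for KO against WT in untreated soma, KCl soma and KCl neurites, 2 and 1 for KCl in KO soma and neurites, and 2 for the KO change of enrichment. DESeq2 gave 0 for the KCl change of enrichment and 1 each for KO against WT in KCl soma and neurites and for KCl in KO soma and neurites. The KCl change was also 0 with RLE size factors, without the term per insert and at an adjusted p. The KO change was 0 at an adjusted p and at a mean count of at least 100. Without the KCl-treated KO replicate 1 libraries, KO against WT in untreated soma gave 1 (an alternative chosen after seeing the data) and KCl in KO neurites 1. The causes were not tested.

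With a replicate block, KO against WT gave 0 in untreated neurites, 1 in KCl soma and 1 in KCl neurites, the latter being Pcsk2 at -2.25 and -2.13, and all genes called were 608 and 2141 in place of 51 and 99. The other blocked counts stayed within 1.5 times. Between genotypes a replicate number joins different litters. For untreated WT neurites against soma, members and genes called were 3 and 3145 without, 2 and 2845 with the block, and 4 and 3266 with the numbers crossed, a setting added after seeing the data.

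Changes of sign were -0.0019 (no filter) and -0.0046 (replicate block) for Pcsk2 after KCl in WT soma, and -0.205 for the Pcsk1 genotype difference without the KCl-treated KO replicate 1 libraries. Leaving out 1 library, the lone library left being assumed to vary like the rest, gave counts of 3 to 4 and 3 to 5 for KCl in WT soma and neurites, 1 to 3 and 1 to 5 for WT neurites against soma untreated and after KCl, 0 to 3 for the KCl change, 0 to 9 for KO against WT in KCl neurites and 0 to 0 in the other 3, 0 to 0 and 0 to 1 for KCl in KO soma and neurites, 0 to 0 for the genotype difference and both KO compartment ratios, and 0 to 4 for the KO change. Values ranged from -0.14 to 0.15 for Pcsk2 and -0.013 to 0.36 for Cpe after KCl in WT soma and neurites, -0.73 to 0.89 for Vgf neurites against soma after KCl, -0.23 to 1.35 for its KCl change, -0.24 to 0.40 for the Pcsk1 genotype difference and -1.41 to 1.07 for the KO change of Cpe.

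With duplicates, p-values measure the spread between these libraries. Multimapped reads were counted, which can add reads of copies. Low genes carry more counting error: the 16 libraries held 30 to 652 reads of Penk each. The sum of site fractions matched the deposited DART score within 5% for 57.4% of RNAs, but not for Chgb, Chga and Pcsk2, and by that sum Chgb (0.293) came before Nptx2 (0.259). By mean editing per site, Nptx2 kept the first and Vgf the last place, and the other 4 changed places.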

Other observations

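The 21 other neuropeptide precursors summed had 168.2 and 168.9 CPM in untreated WT neurites. In untreated KO soma their sum was 174.6 CPM in replicate 1 and 47.6 CPM in replicate 2, and Cpe was at 1196 and 2883 CPM. These duplicates differed widely across all genes, with an SD of the log2 ratio of 0.995. A single pair of libraries cannot show whether the sum and Cpe are related. Penk, the precursor of enkephalins, had a pattern over the 16 libraries most like those of Gpr152 (Pearson r = 0.949), Gm13898 (0.944) and Ccl24 (0.934), from few reads in several libraries.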
